A study of Mus musculus with 6 samples.

Results

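The synaptonemal complex genes described here are the 8 that encode its structural proteins: Sycp1, Sycp2, Sycp3, Syce1, Syce2, Syce3, Tex12 and Six6os1, the last listed in the annotation under its older name 4930447C04Rik. They were chosen by name, and all 8 of the 49671 genes in the count table were matched by identifier and passed the filter on low counts, which left 18040 tested genes. The samples were whole testes of mice on the C57BL/6J background, 12 days post-partum, written in the labels as 3xAnkrd31+/+ (wild type, 3 libraries) and 3xAnkrd31-/- (knockout, 3 libraries). The series text names 3 mice of each genotype but ties no library to 1 animal, so p-values measure the spread between these libraries. How the Ankrd31 allele was made is not stated, and every cell type of the testis contributed to each library. Ankrd31 itself, which encodes a partner of the machinery for meiotic DNA breaks, stood at 84.9, 52.3 and 63.3 CPM (each count relative to the library's TMM-scaled total) in wild-type replicates 1, 2 and 3, and at 40.8, 33.2 and 38.0 CPM in the knockout replicates. Its groups did not overlap, but it passed edgeR's test after Benjamini-Hochberg adjustment only with the replicate number as a block (log2 fold change -0.82 ± 0.07, SE, adjusted p = 0.00505; without the block -0.84 ± 0.17, adjusted p = 1). DESeq2 called it without the block as well (adjusted p = 0.00163). Which part of the gene the allele removes is not stated, so this checks the genotype labels in part.

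The synaptonemal complex is the protein zipper that holds homologous chromosomes together along their length in meiotic prophase. SYCP2 and SYCP3 build the lateral elements on the chromosome axes, SYCP1 forms the transverse filaments that span the gap, and SYCE1, SYCE2, SYCE3, TEX12 and SIX6OS1 make up the central element where the filaments meet. In the testis these genes are expressed in germ cells entering and passing through meiosis, and at this juvenile age the first wave of spermatocytes is in early prophase. The design asks whether loss of Ankrd31 changed transcript levels in such testes. In whole tissue, fewer cells of a type and less RNA per cell cannot be told apart.

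In the fits of all libraries without a replicate block, no synaptonemal complex gene differed between the genotypes beyond the spread between libraries. In edgeR's quasi-likelihood test 0 of the 8 passed after adjustment over all tested genes, and 0 had an unadjusted p under 0.05. Over all 18040 genes edgeR called 0 (0%), with 374 (2.07%) at an unadjusted p under 0.05. DESeq2 and limma voom also called 0 of the 8, and had 0 of them at an unadjusted p under 0.05. Of all genes, DESeq2 called 2 (0.0111%) and had 242 (1.34%) at an unadjusted p under 0.05, and limma voom called 0 and had 382 (2.12%). All 8 log2 fold changes lay above 0, from 0.07 to 0.19, with a median of 0.16, against a median of -0.005 and 47.8% above 0 over all tested genes. The groups overlapped for every one of the 8 genes, and the same libraries were high or low for all of them. The share of all tested genes whose groups did not overlap, as for Ankrd31, was not counted. Together the 8 genes reached 1581, 870.5 and 1095 CPM in wild-type replicates 1, 2 and 3, against 1555, 1122 and 1305.5 CPM in the knockout replicates. They took 0.0872% to 0.159% of all counts in a library.

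**Figure D1:**
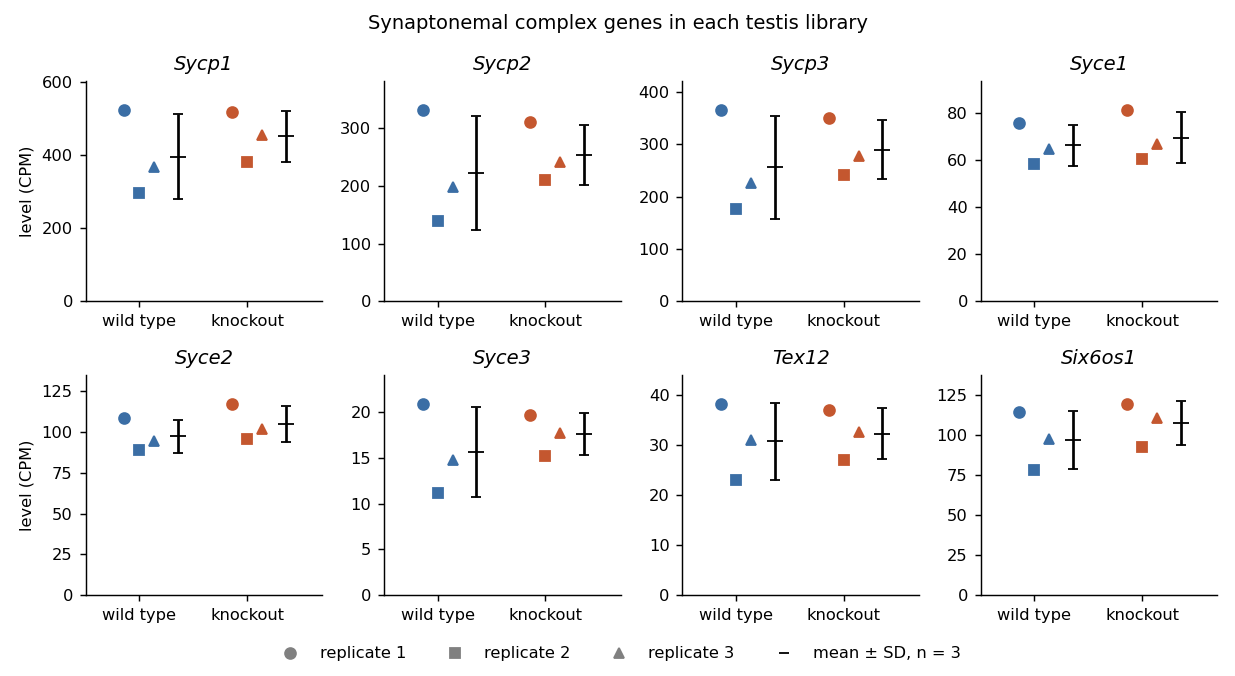
Level in CPM (vertical axis, from 0) of each of the 8 genes in the 3 wild-type and 3 knockout libraries, with the marker shape giving the replicate number and the black bar the mean ± SD of 3 libraries. Replicate 1 is the highest and replicate 2 the lowest of its genotype in all 8 panels, and the groups overlap in each.

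The lateral element genes varied most between libraries. Sycp2 (ENSMUSG00000060445, mm10 chromosome 2, 178345293 to 178407685, minus strand, 45 exon segments) encodes the larger protein of the lateral element. Wild-type replicates 1 to 3 had 332, 139 and 198 CPM, against 311, 209.8 and 241 CPM in their knockout counterparts. The first replicate was high in both genotypes and wild-type replicate 2 stood lowest, so that the knockout values lay within the wild-type range. This gave a wild-type mean of 223 ± 98.8 CPM and a knockout mean of 254 ± 51.7 CPM (SD, n = 3). The log2 fold change was 0.18 ± 0.36 (SE), with a 95% confidence interval from -0.75 to 1.12 (edgeR adjusted p = 1), so that neither a fall nor a doubling of Sycp2 lies outside it.

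Sycp3 (ENSMUSG00000020059, chromosome 10, 88459569 to 88473236, plus strand, 8 exon segments) encodes the fibre-forming protein used as the classical marker of the meiotic axis. Its wild-type values were 366, 176 and 226 CPM, against 351, 241 and 278 CPM in the knockout. Here too the wild-type libraries held both the highest and the lowest value. Their means were 256 ± 98.6 and 289.9 ± 56.3 CPM (SD, n = 3), and the log2 fold change was 0.18 ± 0.31 (SE), with an interval from -0.61 to 0.97 (edgeR adjusted p = 1). Of the exon bases of Sycp3, 52.2% overlap exons of Chpt1 on the opposite strand. The counts behaved as strand-specific: of 182 genes with at least 95% of their exon bases inside exons of a gene with at least 3000 counts on the opposite strand, 133 (73.1%) had counts, against 5 of 303 (1.7%) where the covering gene lay on the same strand. Among the other 7 genes, Six6os1 alone shares exon bases with another gene (3.21% with Six6, which had 2 counts in all libraries together).

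Sycp1, the gene of the transverse filament protein (ENSMUSG00000027855, chromosome 3, 102818499 to 102936100, minus strand, 34 exon segments), gave more counts than any of the other 7. Wild-type libraries 1 to 3 had 525, 295 and 369 CPM, against 518, 380.45 and 457 CPM in the knockout. Replicate 1 was again highest in each genotype, at nearly equal levels, and the knockout exceeded the wild type only in pairs 2 and 3. Means were 396 ± 117 and 452 ± 68.7 CPM (SD, n = 3), with a log2 fold change of 0.19 ± 0.22 (SE) and an interval from -0.36 to 0.73 (edgeR adjusted p = 1).

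Of the central element genes, Syce1 and Syce2 varied least between wild-type libraries. Syce1 (ENSMUSG00000025480, chromosome 7, 140777229 to 140787852, minus strand), whose product links SYCE3 and SIX6OS1, had wild-type values of 75.8, 58.5 and 64.7 CPM and knockout values of 81.3, 60.35 and 66.9 CPM. Each knockout library stood slightly above the wild-type library of its number, by less than the distance between replicates. Syce2 (ENSMUSG00000003824, chromosome 8, 84872111 to 84888221, plus strand), whose product assembles with TEX12 into the fibres of the central element, had wild-type values of 109, 88.75 and 94.5 CPM and knockout values of 118, 95.8 and 102 CPM. Its log2 ratio of knockout to wild type was 0.11 in all 3 pairs of same-numbered libraries, the most even of the 8 genes. Syce2 had a log2 fold change of 0.11 ± 0.10 (SE) with an interval from -0.10 to 0.33, and Syce1 one of 0.07 ± 0.13 with an interval from -0.22 to 0.35 (edgeR adjusted p = 1 for both).

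Tex12 (ENSMUSG00000032065, chromosome 9, 50556819 to 50561325, minus strand), the partner of Syce2, had wild-type values of 38.2, 22.9 and 30.9 CPM and knockout values of 37.0, 27.0 and 32.6 CPM. The range of the knockout lay inside that of the wild type. Six6os1 (ENSMUSG00000021098, chromosome 12, 72881109 to 72940774, minus strand), the partner of Syce1, had 114, 78.2 and 97.6 CPM in the wild type against 119.8, 92.7 and 111 CPM. Syce3 (ENSMUSG00000078938, chromosome 15, 89390174 to 89410503, minus strand), whose product joins SYCP1 to the central element, had 20.96, 11.2 and 14.8 CPM in the wild type against 19.8, 15.2 and 17.75 CPM. Replicate 1 was high and replicate 2 low for these genes as for the others. The log2 fold changes were 0.07 ± 0.19 (SE) for Tex12, 0.16 ± 0.15 for Six6os1 and 0.17 ± 0.21 for Syce3, with intervals from -0.37 to 0.52, from -0.18 to 0.49 and from -0.32 to 0.66 (edgeR adjusted p = 1 for each).

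When each knockout library was set against the wild-type library of the same number, the difference was near 0 in pair 1 and larger in the other pairs. The 8 genes had median log2 ratios of -0.03, 0.30 and 0.22 in pairs 1, 2 and 3, while those of all tested genes were -0.002, -0.002 and -0.003. In pair 1, Sycp1, Sycp2, Sycp3, Syce3 and Tex12 had ratios from -0.10 to -0.02, and Syce1, Syce2 and Six6os1 from 0.07 to 0.11. In pair 2, Sycp2 reached 0.59 and Sycp3 0.45, against 0.05 for Syce1. Syce1, Syce2 and Six6os1 were thus higher in 3 of 3 pairs, as were 13.9% of all tested genes, and the other 5 in 2 of 3. With the replicate number as a block edgeR still called 0 of the 8 (8 of 18040 genes were called, 0.0443%). At an unadjusted p under 0.05 it had 3 of the 8 genes higher, where 3.59% of all tested genes were. These were Six6os1 (0.16 ± 0.05, SE, adjusted p = 0.473), Sycp1 (0.22 ± 0.07, adjusted p = 0.588) and Syce2 (0.11 ± 0.04, adjusted p = 0.616). The block narrowed the intervals of all 8 genes. Those of Sycp1 (0.04 to 0.39), Syce2 (0.01 to 0.21) and Six6os1 (0.06 to 0.27) lay above 0, before any adjustment. The other 5 included 0, such as Sycp2 (-0.30 to 0.80) and Syce1 (-0.04 to 0.17). The count depended on the tool. With the block, limma voom had 5 of the 8 at an unadjusted p under 0.05 (1360 of all 18040 genes, both directions). DESeq2 with the block had 1 of the 8 (398 of all genes), and both tools called 0 of the 8.

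The direction depended on single libraries in the fits without the block. Without wild-type replicate 2, in which all 8 genes were lowest, the median log2 fold change was -0.02 and Sycp2, Sycp3, Syce1, Syce3 and Tex12 lay below 0. Without knockout replicate 1 it was 0.02, without wild-type replicate 1 it was 0.37, and without knockout replicate 2 it was 0.27. In the fit without wild-type replicate 1, edgeR called 0 of the 8. It had 5 of the 8 at an unadjusted p under 0.05, all higher in the knockout, beside 1531 of all 18341 genes in both directions. With the block and a whole pair left out, all 8 values lay above 0 each time, with medians of 0.28 without pair 1, 0.10 without pair 2 and 0.16 without pair 3. With the block and without pair 1, edgeR called Sycp1 (0.34 ± 0.05, SE, adjusted p = 0.0189) and Sycp3 (0.38 ± 0.05, adjusted p = 0.0185). That fit called 63 of 18104 genes, 37 of them higher (0.204%). Over the alternatives the adjusted p ran from 0.0189 to 1 for Sycp1 and from 0.0185 to 1 for Sycp3.

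**Figure D2:**
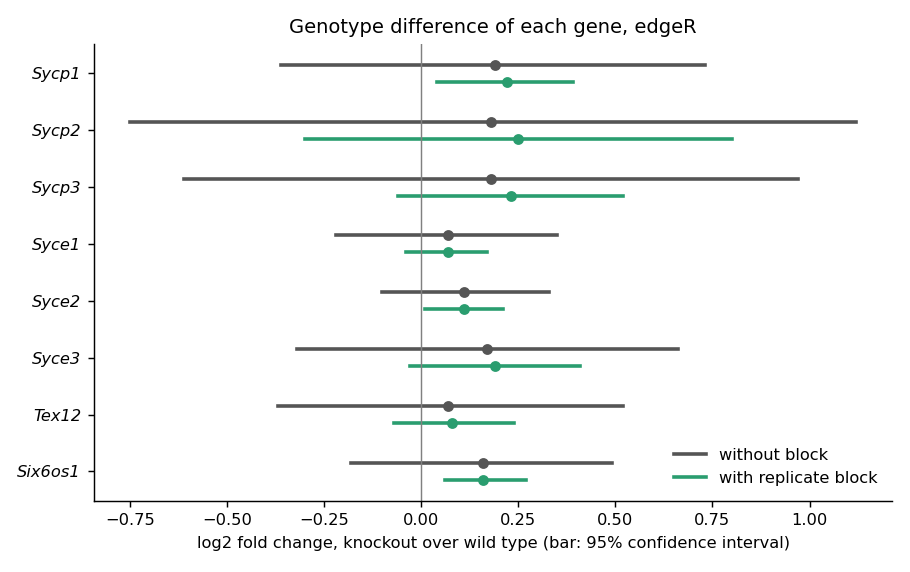
Log2 fold change of knockout over wild type (horizontal axis) for each of the 8 genes in edgeR, as a point with its 95% confidence interval, without the block in grey and with the replicate number as a block in green. All 8 points lie above 0, the intervals without the block all include 0, those with it lie above 0 for Sycp1, Syce2 and Six6os1, and Sycp2 has the widest, from -0.75 to 1.12.

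The libraries ranked alike for all 8 genes. Within the wild type, replicate 1 was above replicate 3 and replicate 3 above replicate 2 for 8 of 8 genes, and the knockout libraries had the same order of numbers for 8 of 8. Both orders together were found in 6.91% of the 12646 tested genes with a mean of at least 5 CPM. Pearson's r of log2 CPM between pairs of the 8 genes, over 6 libraries that share depth and tissue makeup across genes, was 0.88 to 1.0 with a median of 0.95.

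The genes followed the common order by very different amounts. From the lowest to the highest wild-type library, Sycp2 differed 2.38 fold, Sycp3 2.08 fold, Syce3 1.87 fold, Sycp1 1.78 fold and Tex12 1.67 fold. The same span was 1.46 fold for Six6os1, 1.30 fold for Syce1 and 1.23 fold for Syce2. Spans as wide as that of Sycp2 were seen between the wild-type libraries in 0.538% of the same 12646 genes, and as wide as that of Syce2 in 28.3%. Between knockout libraries the spans were narrower for Sycp2 (1.48 fold), Sycp3 (1.46 fold) and Sycp1 (1.36 fold) as well as for Tex12 (1.37 fold), Syce3 (1.30 fold) and Six6os1 (1.29 fold). They were 1.35 fold for Syce1 and 1.23 fold for Syce2, so that Syce1 was not among the flattest there. The slope of a gene's log2 CPM on the mean log2 CPM of the other 7 over the 6 libraries put this in 1 value per gene. It was 1.72 for Sycp2 and 1.46 for Sycp3, the lateral element genes, 1.14 for Syce3, 1.12 for Sycp1, 0.93 for Tex12, 0.75 for Six6os1, 0.56 for Syce1 and 0.45 for Syce2. With the libraries of replicates 2 and 3 alone the slope was 1.66 for Sycp2, 1.33 for Syce3, 1.31 for Sycp3, 1.23 for Sycp1, 0.98 for Tex12, 0.96 for Six6os1, 0.35 for Syce2 and 0.33 for Syce1. In these 4 libraries the central element gene Syce3 thus stood level with Sycp3. These are descriptions of 6 libraries, and the differences between slopes were not tested.

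**Figure D3:**
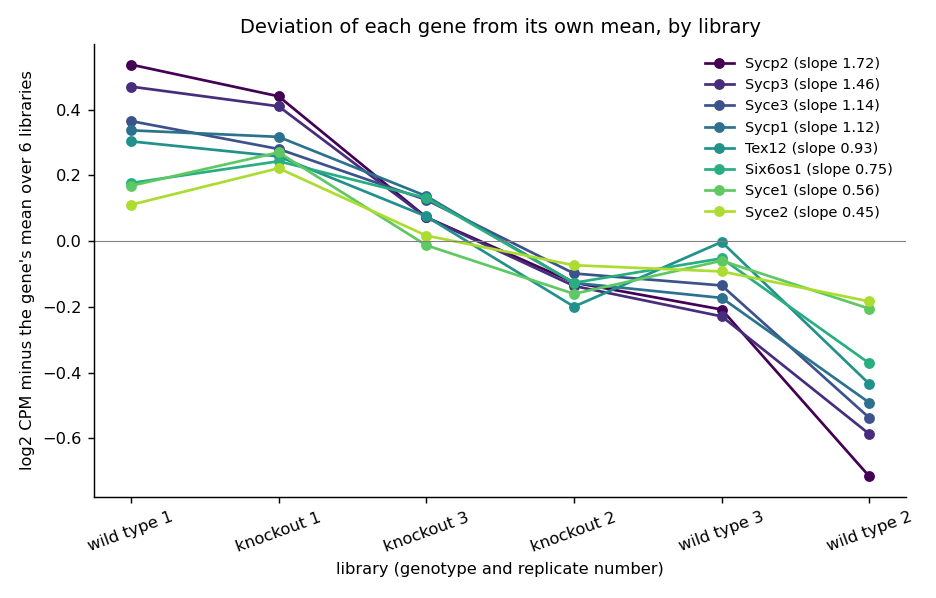
Log2 CPM of each gene minus its own mean over the 6 libraries (vertical axis), with libraries ordered by the summed level of the 8 genes (horizontal axis) and lines coloured by slope on the other 7 genes. The lines for Sycp2 and Sycp3 (slopes 1.72 and 1.46) are the steepest and those for Syce1 and Syce2 (0.56 and 0.45) the flattest.

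Ratios between the genes varied to different degrees over the libraries, as seen in the ratio of their levels per exon length (RPKM, which is CPM per kilobase of summed exon length) within each library. Sycp1 over Syce3, whose products meet at the central element, was nearly constant, at 3.89, 4.10 and 3.87 in the wild type against 4.07, 3.89 and 4.0 in the knockout. The ratio of the lateral element pair, Sycp3 over Sycp2, was 5.2, 5.96 and 5.37 in the wild type against 5.34, 5.41 and 5.45 in the knockout. The central element pair Syce2 over Tex12 ran from 1.47 to 2.0 in the wild type and from 1.61 to 1.83 in the knockout, and Syce1 over Six6os1 from 2.71 to 3.06 and from 2.47 to 2.78. The ratio of transverse filament to lateral element, Sycp1 over Sycp3, ran from 0.51 to 0.60 and from 0.52 to 0.58, steadier than Syce2 over Tex12. Sycp2 over Syce2, the genes of steepest and flattest slope, was 1.01, 0.52 and 0.69 in the wild type against 0.87, 0.72 and 0.78 in the knockout. In each of these 6 ratios the genotypes overlapped.

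By level per exon length the order of the 8 genes was Sycp3, Sycp1, Syce2, Syce1, Sycp2, Tex12, Syce3 and Six6os1. Sycp3 had 202.5 ± 78.0 RPKM in the wild type and 229 ± 44.6 RPKM in the knockout (SD, n = 3), and 0.588% of tested genes had a mean RPKM as high. Sycp1 had 111 ± 32.9 and 127 ± 19.3 RPKM. In each of the 6 libraries Sycp3 exceeded Sycp1 (1.68 to 1.96 fold) and Sycp1 exceeded Syce2 (1.84 to 2.67 fold). Syce2 (49.5 ± 5.24 and 53.4 ± 5.69 RPKM) and Syce1 (45.4 ± 6.00 and 47.6 ± 7.35 RPKM) lay close together, with Syce2 1.06 to 1.18 fold higher in 6 of 6 libraries. Sycp2 (37.4 ± 16.6 and 42.5 ± 8.66 RPKM) was above Syce1 in wild-type replicate 1 only. Tex12 (30.2 ± 7.53 and 31.7 ± 4.96 RPKM) and Syce3 (28.3 ± 8.91 and 31.8 ± 4.13 RPKM) could not be ordered. Six6os1 was lowest in all 6 libraries, at 16.2 ± 3.03 and 18.0 ± 2.31 RPKM. The summed exon length includes exons of all annotated isoforms, so genes whose long isoforms are little used come out too low on this scale.

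**Figure D4:**
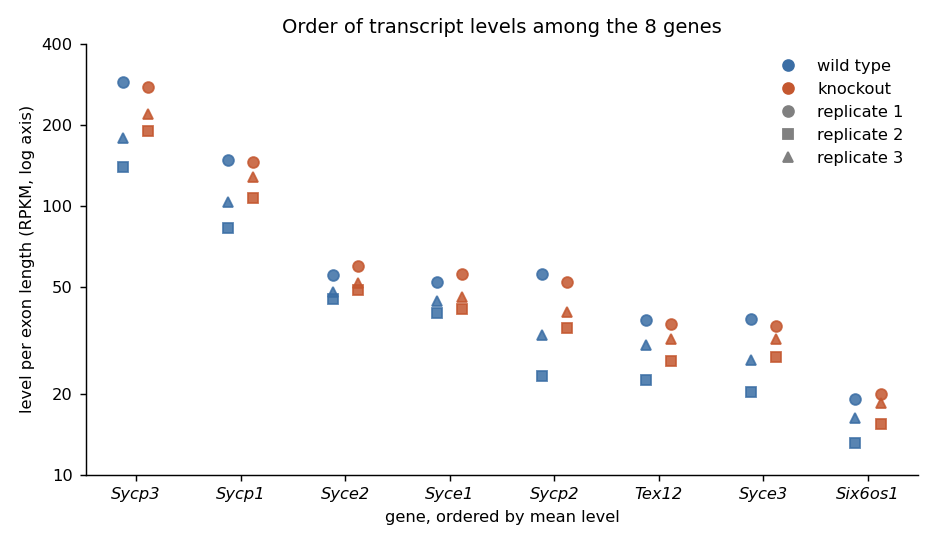
Level per exon length (RPKM, log axis) of the 8 genes in each library, ordered by mean level, with wild type in blue, knockout in orange and the marker shape giving the replicate number. Sycp3 and Sycp1 stand above the rest in every library, and Six6os1, at 16.2 and 18.0 RPKM on average, stands lowest.

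The stretches before the gene starts are shown for Sycp1, Sycp3 and Tex12, which hold the E-box CACGTG there. They are also shown for Sycp2 and Syce1, the steepest and one of the flattest genes, which do not. The E-box CACGTG is the core that dimers of MAX and its partners bind. Sequences are from RefSeq (build GRCm38.p6, minus strand except for Sycp3), run 5′ to 3′ towards the gene and end before the RefSeq start and any annotated exon of the gene. Capitals mark, on either strand, the E-box, the letters GCGGGAA (a core of E2F sites), the palindrome CTCGCGAG (known from CpG-rich promoters) and the letters TAACNG (a core of MYB sites).
Sycp1, chr3:102936101-102936350: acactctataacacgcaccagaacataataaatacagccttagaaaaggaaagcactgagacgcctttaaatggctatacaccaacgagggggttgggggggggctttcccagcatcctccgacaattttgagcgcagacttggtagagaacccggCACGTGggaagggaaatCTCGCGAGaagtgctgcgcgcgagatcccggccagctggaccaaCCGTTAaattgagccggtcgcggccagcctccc
Sycp3, chr10:88459337-88459568: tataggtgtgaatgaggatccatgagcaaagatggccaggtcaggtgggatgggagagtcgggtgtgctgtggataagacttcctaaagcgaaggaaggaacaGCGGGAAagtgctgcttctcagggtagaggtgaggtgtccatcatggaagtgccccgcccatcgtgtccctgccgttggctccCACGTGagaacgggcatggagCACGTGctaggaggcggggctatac
Tex12, chr9:50561326-50561518: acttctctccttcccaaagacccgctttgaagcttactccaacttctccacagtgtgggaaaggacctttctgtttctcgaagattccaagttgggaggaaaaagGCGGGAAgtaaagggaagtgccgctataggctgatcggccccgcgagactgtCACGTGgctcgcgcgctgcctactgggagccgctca
Sycp2, chr2:178407686-178407908: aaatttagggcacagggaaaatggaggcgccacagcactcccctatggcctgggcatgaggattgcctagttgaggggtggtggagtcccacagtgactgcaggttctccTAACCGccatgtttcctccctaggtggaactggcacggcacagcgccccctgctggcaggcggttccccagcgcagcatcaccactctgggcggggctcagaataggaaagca
Syce1, chr7:140787855-140788104: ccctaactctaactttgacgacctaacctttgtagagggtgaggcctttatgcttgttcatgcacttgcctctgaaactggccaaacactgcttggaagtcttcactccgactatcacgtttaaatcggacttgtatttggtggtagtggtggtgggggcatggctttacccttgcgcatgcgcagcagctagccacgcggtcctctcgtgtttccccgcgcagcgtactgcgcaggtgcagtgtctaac

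In the 250 bases before any RefSeq start, 5 of the 8 genes held CACGTG (Sycp1, Sycp3, Syce2, Tex12 and Six6os1), as did 6.86% of 27025 genes in the RefSeq table. The letters contain a CpG, and the members' windows with the E-box held 12 to 24 CpG against a median of 6 over all windows; the part of CpG content in this share was not tested. Sycp3 had it at 64 and 43 bases before its start, Sycp1 at 94 and Tex12 at 93. The E2F letters were found for Sycp3, Syce2 and Tex12 (4.38% of all genes) and the palindrome for Sycp1 and Six6os1 (0.862%). The MYB letters were found for 5 genes (22.3%), and TGACGTCA, the full site of CREB family factors, for 0 (1.77%). Not every match lay upstream of the whole gene. The E-box and E2F letters of Syce2, the MYB letters of Syce3 and all matches of Six6os1 lay inside the annotated gene, before an inner RefSeq start. The E-box, the palindrome and the CREB site read the same on both strands, and no 2 of these matches overlapped. The motifs were chosen with these sequences in view, and the matches are descriptions of letters, not of binding. Any link between these letters and the slope or library order of the genes was not tested.

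Of 33 tested genes that work beside the synaptonemal complex, 27 had log2 fold changes above 0, with a median of 0.07, and 0 passed in edgeR. At an unadjusted p under 0.05 there were 0 without the block, and 7 higher and 1 lower with it, where 3.59% of all tested genes were higher and 3.89% lower. The axis list (cohesins, HORMA proteins and their remodeller) had 8 of 9 log2 fold changes above 0 with a median of 0.07. Smc1b, the meiotic cohesin subunit, had 0.15 ± 0.12 (SE), from wild-type values of 423, 301 and 360.3 CPM and knockout values of 445, 365 and 396 CPM. The values were 0.07 ± 0.07 for Smc3, a cohesin subunit of all dividing cells, and 0.07 ± 0.12 for Stag3 and 0.14 ± 0.20 for Rad21l, both meiotic cohesin genes. Of the genes whose recombination proteins promote synapsis, 9 of 10 lay above 0 with a median of 0.15. Among them were the strand exchange gene Dmc1 (0.25 ± 0.19), the break enzyme gene Spo11 (0.39 ± 0.42), and the crossover genes Tex11 (0.12 ± 0.09) and Shoc1 (0.15 ± 0.15), each with groups that overlapped. Of the telomere attachment genes 5 of 5 lay above 0 with a median of 0.07, including Terb1 (0.28 ± 0.27), Terb2 (0.10 ± 0.26), Majin (0.07 ± 0.25) and Sun1 (0.05 ± 0.08). Of the assembly and turnover factors 5 of 8 did, with a median of 0.01. There Fbxo47 had 0.24 ± 0.27, the proteasome subunit gene Psma8 -0.23 ± 0.25, the chaperone gene Fkbp6 0.05 ± 0.07 and Aurkb, a mitotic and meiotic kinase gene, -0.06 ± 0.09.

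The paralogs of the complex were barely expressed. Sycp2l, known from oocytes, had 28 counts in all 6 libraries together and did not pass the low-count filter. Syce1l lay at 1.44 to 2.41 CPM, and its log2 fold change was -0.19 ± 0.24 (SE), also not past the edgeR threshold.

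The library order of the synaptonemal complex genes was shared by some of these genes and not by others. Both orders held in 5 of 5 telomere attachment genes, 8 of 10 recombination genes, 4 of 9 axis genes and 3 of 8 assembly and turnover factors, beside the 6.91% of expressed genes given above. The 8 genes most like the mean log2 CPM of the complex over the 6 libraries, among 12638 others with at least 5 CPM, were Asb1, Hormad1, Iqcg, Uap1, Fmr1nb, Msh5, S100pbp and Samd4b, with Pearson's r from 0.996 to 0.998. Hormad1, which encodes an axis protein removed as chromosomes synapse, had wild-type values of 91.8, 36.55 and 52.7 CPM and knockout values of 88.1, 50.2 and 66.3 CPM, a wider span than that of any gene of the complex. Msh5, which encodes a crossover protein, had 30.8, 16.6 and 22.6 CPM in the wild type against 30.9, 21.5 and 25.1 CPM. Uap1 and Samd4b had the same order with narrow spans, from 68.2 to 75.7 CPM and from 181.5 to 209 CPM. With 6 libraries and this many genes a high r is common: 5.05% of the genes had r of at least 0.9 and 4.01% had r of at most -0.9.

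Markers of leptotene and zygotene cells moved with the complex. The sum of the pachytene markers had the same library order with a wider span. The sums for spermatogonia varied less, and that of the undifferentiated cells had replicate 1 lowest in each genotype. Summed over 9 genes of leptotene and zygotene cells that are not part of the complex, wild-type levels were 414, 239 and 297 CPM and knockout levels 424, 304 and 345.5 CPM, in the order of libraries seen for the complex, with 7 of the 9 genes showing both orders. The median log2 fold change of these 9 genes was 0.15, and Spo11, Dmc1 and Hormad1 among them belong to the lists above as well. Pachytene markers summed to 240.5, 105 and 116 CPM in wild-type libraries against 172, 118 and 124 CPM in knockout libraries. These sums had the library order of the complex, with 2 of the 6 tested genes showing both orders. All 6 that were tested had log2 fold changes below 0 (median -0.44, 0 called by edgeR). That value rested on wild-type replicate 1: these markers had median log2 ratios of -0.78, 0.17 and -0.01 in pairs 1, 2 and 3. Of the 8 pachytene markers, Pgk2 and Pou5f2 stayed at or under 0.18 CPM in all libraries. Ldhc stood at 7.92 CPM in wild-type replicate 1 and at 0.7 to 1.68 CPM in the other libraries. The sums of the earlier germ cell markers varied less. Differentiating spermatogonia and meiotic entry summed to 833, 769 and 806 CPM in wild-type libraries against 835, 780.2 and 786 CPM. This was the order of the complex with a much narrower span, but single genes of the list differed. Of its 8 genes, 2 (Stra8 and Gm4969) showed both orders. Gm4969 had 128.63, 79.42 and 104.2 CPM against 133.82, 91.26 and 103.85 CPM. Dnmt3b had replicate 1 lowest in each genotype, at 83.31, 107.44 and 94.59 CPM against 80.09, 97.21 and 98.8 CPM. Undifferentiated spermatogonia had the first replicate lowest in each genotype, at 338, 397 and 412 CPM against 344, 359 and 392 CPM. Id4, 1 of these 9 genes, instead had both orders of the complex, at 17.25, 11.57 and 13.02 CPM against 18.35, 13.23 and 15.45 CPM. The part of germ cell stage in the differences between libraries, and in the differences between genotypes, was not tested.

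Somatic markers showed that each library held testis tissue, and their sums did not rank the libraries as the complex did. The Sertoli list summed to 4789 to 5441 CPM in the wild type and 5233 to 5540 CPM in the knockout, and the peritubular myoid list to 703 to 777 CPM and 751 to 773 CPM. Sums for macrophages were 72.8 to 102 CPM and 88.4 to 99.4 CPM, for endothelium 133 to 168 CPM and 124 to 143 CPM, and for stroma 1957 to 2696 CPM and 2060 to 2334 CPM. For endothelium and stroma, replicate 1, the highest for the complex, was lowest in each genotype. This did not hold in both genotypes for the Sertoli, myoid, macrophage and Leydig sums. The part of tissue makeup in the levels of the complex was not tested. Leydig markers ran from 320 to 372 CPM and from 239 to 744 CPM, with the highest value in knockout replicate 2. Epididymis and rete markers summed to 62.6 CPM in wild-type replicate 3, which thus held tissue markers from outside the testis cords, and to 2.69 to 8.02 CPM in the other libraries, with Lcn5 at 0 in all 6. Without wild-type replicate 3 the median log2 fold change of the 8 complex genes was 0.11.

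**Figure D5:**
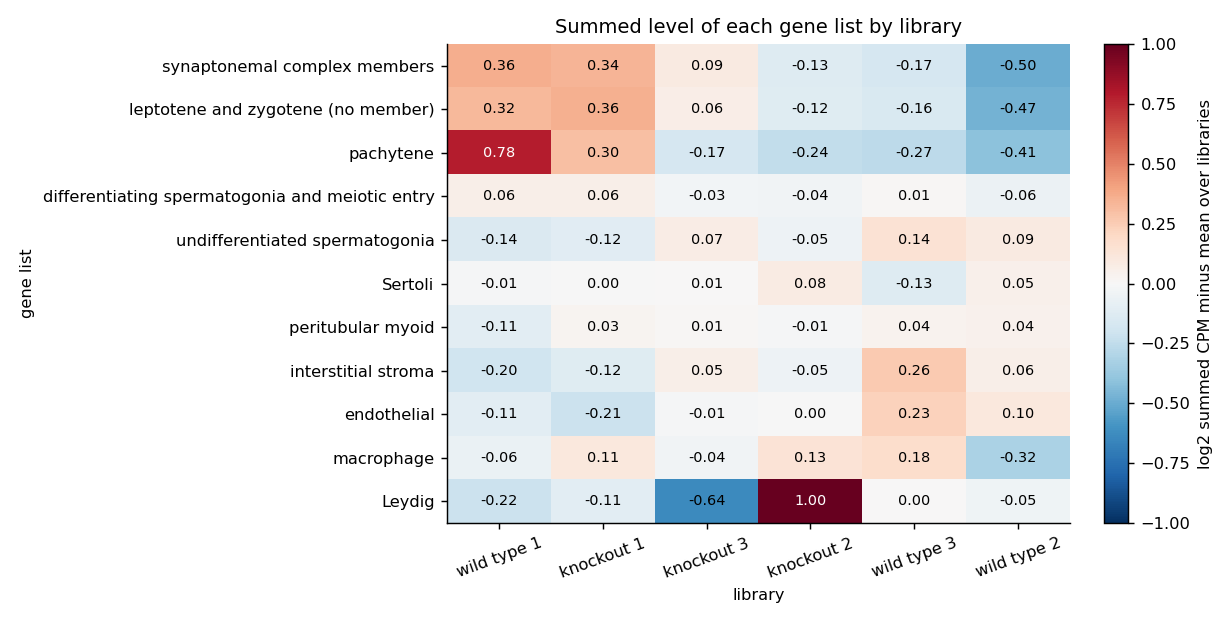
Log2 of the summed CPM of each gene list minus its mean over the 6 libraries (colour and printed value), with lists as rows and libraries as columns in the same order as for the single genes. The complex (0.36 in wild-type replicate 1 to -0.50 in wild-type replicate 2) and the leptotene and zygotene list (0.32 to -0.47) share a pattern that the Sertoli and myoid lists do not. The sum of the pachytene list (0.78 to -0.41) has the library order of the complex, which 2 of its 6 tested genes show within both genotypes.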

How the data were processed

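RNA from whole testes of the 3 wild-type and 3 Ankrd31 knockout libraries was prepared strand-specifically, per the labels' protocols. What the authors deposited is a single table of raw counts per gene, not normalized, with the summed exon length of each gene per the file headers. The submitters' processing notes name bcl2fastq 2.19.1, GSNAP, featureCounts 1.6.0 and build mm10. Not given in the sources used here are the strand setting, the handling of reads with several matches and the annotation release. The 92 spike-in rows, with 1 count in all, were left out. Of 49671 genes, 49412 matched GENCODE M21, which gave symbols. Totals were 21014060 to 22706296 counts, and the 8 genes had 255 to 11589 counts in a library. Replicates of a group differed by a chi-square of 7.35 to 12.96 per degree of freedom, so no library was a copy of another in its group. Libraries of different genotypes were not compared in this way.

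All genes were fitted with edgeR 4.0.16 in R 4.3.3 (filterByExpr, TMM factors, robust quasi-likelihood, two-sided F test, Benjamini-Hochberg over 18040 genes, threshold 0.05). Alternatives were DESeq2 1.42.0, limma 3.58.1 (voom), other scalings and filters, a replicate block, and left-out libraries or pairs. SE and 95% intervals follow from the quasi-likelihood fit. Ratios between same-numbered libraries, slopes and correlations used log2 CPM with a prior count of 2. The label numbers were taken to pair the libraries, since the correlation of deviations was 0.42, 0.26 and 0.28 for numbers 1, 2 and 3, each above the limit of 0.1. Between libraries of different numbers it was -0.29 to 0.02. These correlations come from the same counts that the fits with the block used. What the numbers mark is not stated. The members, lists, named genes and tests were chosen with earlier results of these data known. Named are the 8 genes, Ankrd31, the 4 genes of smallest p of each pathway list, the paralogs and the 8 genes most like the complex. Chpt1, Six6 and single markers were named after their values were seen. Shoc1 was found under an older symbol, and Spata22 was not analysed here.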

Additional observations from a re-analysis of the deposited data

How the results depend on the processing

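Over 19 alternatives the 8 genes gave 152 log2 fold changes, of which 145 lay above 0 and 2 passed. The 7 of opposite sign came from left-out libraries: without wild-type replicate 2 they were -0.06 for Sycp2, -0.03 for Sycp3, -0.01 for Syce1, -0.03 for Syce3 and -0.10 for Tex12, and without knockout replicate 1 they were -0.06 for Syce1 and -0.04 for Tex12. Leaving out 1 library at a time moved the median of the 8 genes between -0.02 and 0.37, and the highest values, all without wild-type replicate 1, were 0.59 for Sycp2, 0.53 for Sycp3, 0.17 for Syce1, 0.44 for Syce3 and 0.26 for Tex12. The 2 that passed were Sycp1 (0.34) and Sycp3 (0.38), in the fit with the replicate block and without pair 1, where 2 of the 8 genes were called in all; the block changed no other call among the 8. Over all genes edgeR called 0 in the main fit, which had no block. It called 1 with neither block nor low-count filter, 8 with the replicate block, 63 with the block and without pair 1, and 57 with the block and without pair 2. DESeq2 called 2 without the replicate block and 14 with it, and limma voom with the replicate block called 1. Why these counts differ was not tested. Ankrd31 stayed lower in all of these fits. It passed in DESeq2 without the block (-0.84). With the replicate block it passed in edgeR (-0.82), DESeq2 (-0.81) and limma voom (-0.83), and in edgeR also without pair 1 (-0.69) and without pair 2 (-0.90), but not without pair 3 (-0.86, adjusted p = 0.316). Of the 8 genes most like the complex, 7 were again among the first 8 at a minimum of 20 CPM. No member had under 255 counts in a library. The parts of counting depth and of the spread between libraries in the width of the intervals were not tested.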
